A study of Mus musculus with 2 samples.

Results

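Type 1 conventional dendritic cells (cDC1s) were picked out of tumor immune cells by their own transcripts, and 271 of 12304 sequenced cells met the rule. The rule asked for a mitochondrial share under 10% of the unique molecular identifiers (UMIs, each standing for 1 captured mRNA molecule), at least 2 UMIs of Xcr1 and Clec9a together, at least 1 UMI of Flt3, Wdfy4 and Zbtb46 together, at most 2 UMIs of Ccr7 and Fscn1 together and at most 5 UMIs of C1qa, C1qb and C1qc together. The cells came from tumors of B16-F10, a melanoma line of C57BL/6 mice, grown for 10 days under the skin of female C57BL/6 mice after injection of 200000 cells. The study's methods give an age of 6 to 10 weeks for all animals and of 8 to 10 weeks for tumors under the skin. One library was made from Irg1+/+ mice and the other from Irg1-/- mice, which lack Irg1 (listed as Acod1, the enzyme that makes itaconate) in every tissue of the body and were backcrossed to C57BL/6J. Pieces of 100 mm3 from the tumors of 3 mice of a genotype were pooled and sorted for Cd45, the surface protein common to leukocytes, and about 6000 cells per pool went to BD Rhapsody capture. Each genotype therefore has 1 library and no replicate, so no test between genotypes was possible, and genotype cannot be told apart from anything else that differed between the pools. All intervals given are 95% intervals and cover counting error only.

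cDC1s are the dendritic cells that take up material of dead cells through receptors such as Clec9a and present it on MHC class I to CD8+ T cells, which is called cross-presentation. Their development depends on the transcription factors Irf8 and Batf3, and the chemokine receptor Xcr1 lets them respond to Xcl1 from natural killer (NK) cells and T cells. In tumors they are known as a source of Cxcl9, which attracts T cells, and those that have taken up tumor material mature, express Ccr7 and leave for the lymph node.

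The Irg1+/+ library held 6408 cells with 43617546 UMIs and the library labelled Irg1-/- held 5896 cells with 36432067 UMIs. The limit on mitochondrial UMIs left 6284 and 5794 cells. Of the cell barcodes, 36 occurred in both libraries, and none of these marked a cDC1 in both. Members of the cDC1 set numbered 133 in the Irg1+/+ library, with 501 to 15392 UMIs per cell and a median of 6472, and 138 in the library labelled Irg1-/-, with 492 to 23163 and a median of 7358. Levels are given as CPM, that is, UMIs summed over the cells of a class and scaled to 1000000 non-mitochondrial UMIs, of which the members had 858859 and 1059214.

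The targeted gene did not separate the libraries in these cells. Acod1 (ENSMUSG00000022126, chromosome 14 of GRCm38 from 103046977 to 103056573) had 17 UMIs in the cDC1s of the Irg1+/+ library, or 19.8 CPM (11.5 to 31.7), and 26 UMIs in those of the library labelled Irg1-/-, or 24.5 CPM (16.03 to 36.0). Cells of the T cell gate (at least 2 UMIs of Cd3d, Cd3e and Cd3g), a lineage not known for this enzyme, had 63.0 and 68.8 CPM, so that the cDC1 values lay below the level found in T cells. C1q-rich macrophages (at least 20 UMIs of the C1q genes) had 78.2 and 147.5 CPM. Whether the UMIs fell in a deleted stretch of Acod1 cannot be read from gene totals, and every direction given here rests on how the libraries were labelled.

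The share of cDC1s among kept cells was 2.12% (1.78 to 2.503) with Irg1+/+ and 2.38% (2.01 to 2.81) with the label Irg1-/-. The interval of the difference, 0.27 percentage points, ran from −0.26 to 0.80. Beside them, 98 and 174 cells had at least 2 UMIs of Cd209a in place of Xcr1 and Clec9a (Cd209a DCs, 1.56% and 3.003%). Another 348 and 300 cells had at least 3 UMIs of Ccr7 and Fscn1 (Ccr7 Fscn1 DCs, 5.54% and 5.18%). Both classes also met the limits on dendritic genes and C1q genes. Cd209a DCs had at most 1 UMI of Xcr1 and Clec9a. Ccr7 Fscn1 DCs had no limit on these genes, so mature cells with Xcr1 or Clec9a can be among them. Among these 3 dendritic classes together, cDC1s accounted for 22.97% and 22.5%. The direction of the small difference in cDC1s depended on how the limits were set. With limits scaled to each cell's depth (per 10000 UMIs, at least 3 of Xcr1 and Clec9a, at most 4 of Ccr7 and Fscn1 and at most 10 of the C1q genes), chosen after the data had been seen, 239 and 180 cells were cDC1s, or 3.80% (3.34 to 4.31) and 3.11% (2.68 to 3.59). The difference was then −0.70 points (−1.35 to −0.04). These sets shared 105 and 110 cells with the members, and the 134 and 70 cells they added had 581 and 361 CPM of Itgae at medians of 15387 and 13520 UMIs.

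The fixed limits removed most of the cells with the most UMIs of Xcr1 and Clec9a, which were also the deepest by their median. Among cells with exactly 2 of these UMIs, 39 of 221 and 39 of 158 were members. Of the kept cells, 591 and 425 had at least 2 UMIs of these genes, the limit on dendritic genes left 465 and 344, that on Ccr7 and Fscn1 left 287 and 246, and that on the complement genes C1qa, C1qb and C1qc, which mark macrophages, left 133 and 138. Among cells with 20 or more UMIs of Xcr1 and Clec9a, 9 of 90 and 6 of 38 were members, and 79 and 29 of them had more than 5 UMIs of the C1q genes at medians of 17890 and 16270 UMIs per cell. These deep cells had 620 and 416 CPM of Itgae, which exceeds the 326 and 181 CPM of the members. A UMI of Itgae or Tlr3 was present in 44 of 44 and 41 of 49 members with 6 or more UMIs of Xcr1 and Clec9a, but in 12 of 39 and 7 of 39 members with exactly 2.

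**Figure D1:**
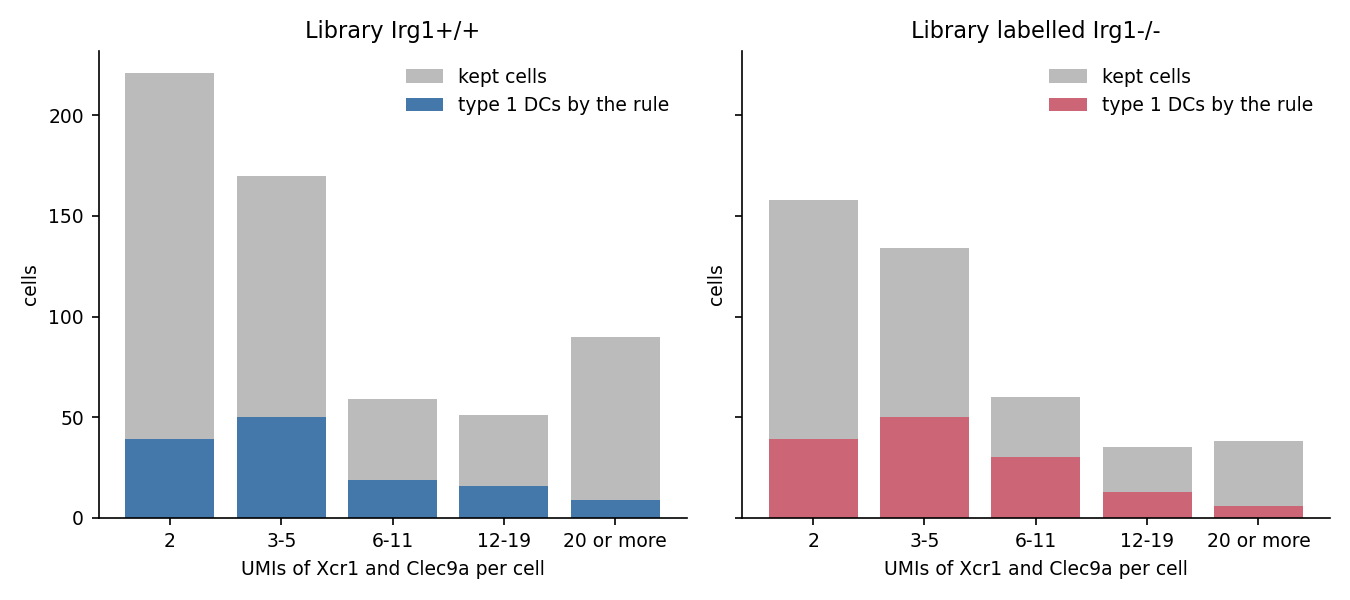
Cells with at least 2 UMIs of Xcr1 and Clec9a together, by the number of these UMIs, in the Irg1+/+ library (left) and the library labelled Irg1-/- (right). Grey bars are all kept cells and colored bars the cDC1s by the rule, on a shared axis of cells. In the bin of 20 or more UMIs, 9 of 90 and 6 of 38 cells were members.

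Genes that chose the cells are given as a description. Xcr1 (chromosome 9, from 123852315 to 123862029) had 579.8 CPM (530.0 to 633) in the Irg1+/+ members and 413 CPM (375 to 453) in those labelled Irg1-/-. Clec9a (chromosome 6, from 129408862 to 129424763), the receptor for actin filaments of dead cells, had 433 and 429.6 CPM. Wdfy4, needed for cross-presentation of cell-associated antigen, had 905 and 733 CPM, and Flt3, the receptor for the growth factor of dendritic cells, had 309.7 and 296 CPM. UMIs of both Xcr1 and Clec9a were found in 71 and 78 members, of Xcr1 alone in 21 and 11 and of Clec9a alone in 41 and 49.

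Markers that the rule did not use were at high levels in the set. Itgae (CD103; chromosome 11, from 73090583 to 73147446), an integrin chain of migratory cDC1s, had 326 CPM (289 to 366) and 181 CPM (157 to 209) in cDC1s, against 22.4 and 7.98 CPM in Cd209a DCs and 37.5 and 29.3 CPM in Ccr7 Fscn1 DCs. Tlr3 (chromosome 8, from 45395665 to 45411080), the endosomal sensor of double-stranded RNA, had 222 and 175 CPM, against 8.62 and 18.6 CPM in Cd209a DCs. Cd24a, a surface glycoprotein used to sort cDC1s, had 1245 and 1020 CPM, against 210.4 and 229.7 CPM in Cd209a DCs. All 3 markers were thus highest in cDC1s in both libraries among the 6 classes plotted.

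Irf8 (chromosome 8, from 120736358 to 120756694), the lineage factor of cDC1s, had 1517 and 1331 CPM, but NK cells reached 1564 and 1592 CPM. Batf3, its partner, had 55.9 and 85.0 CPM, below the 131 and 126 CPM of Ccr7 Fscn1 DCs. Naaa, a lysosomal amidase, had 1801 and 1525 CPM and Ppt1, a lysosomal thioesterase, 1113 and 786 CPM, both highest in cDC1s among the classes plotted. A UMI of Itgae or Tlr3 was present in 60.2% and 47.8% of the cDC1s (median depths of 6472 and 7358 UMIs), in 12.2% and 13.8% of Cd209a DCs (5660 and 6248 UMIs) and in 14.2% and 14.4% of C1q-rich macrophages (7977 and 8594 UMIs).

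**Figure D2:**
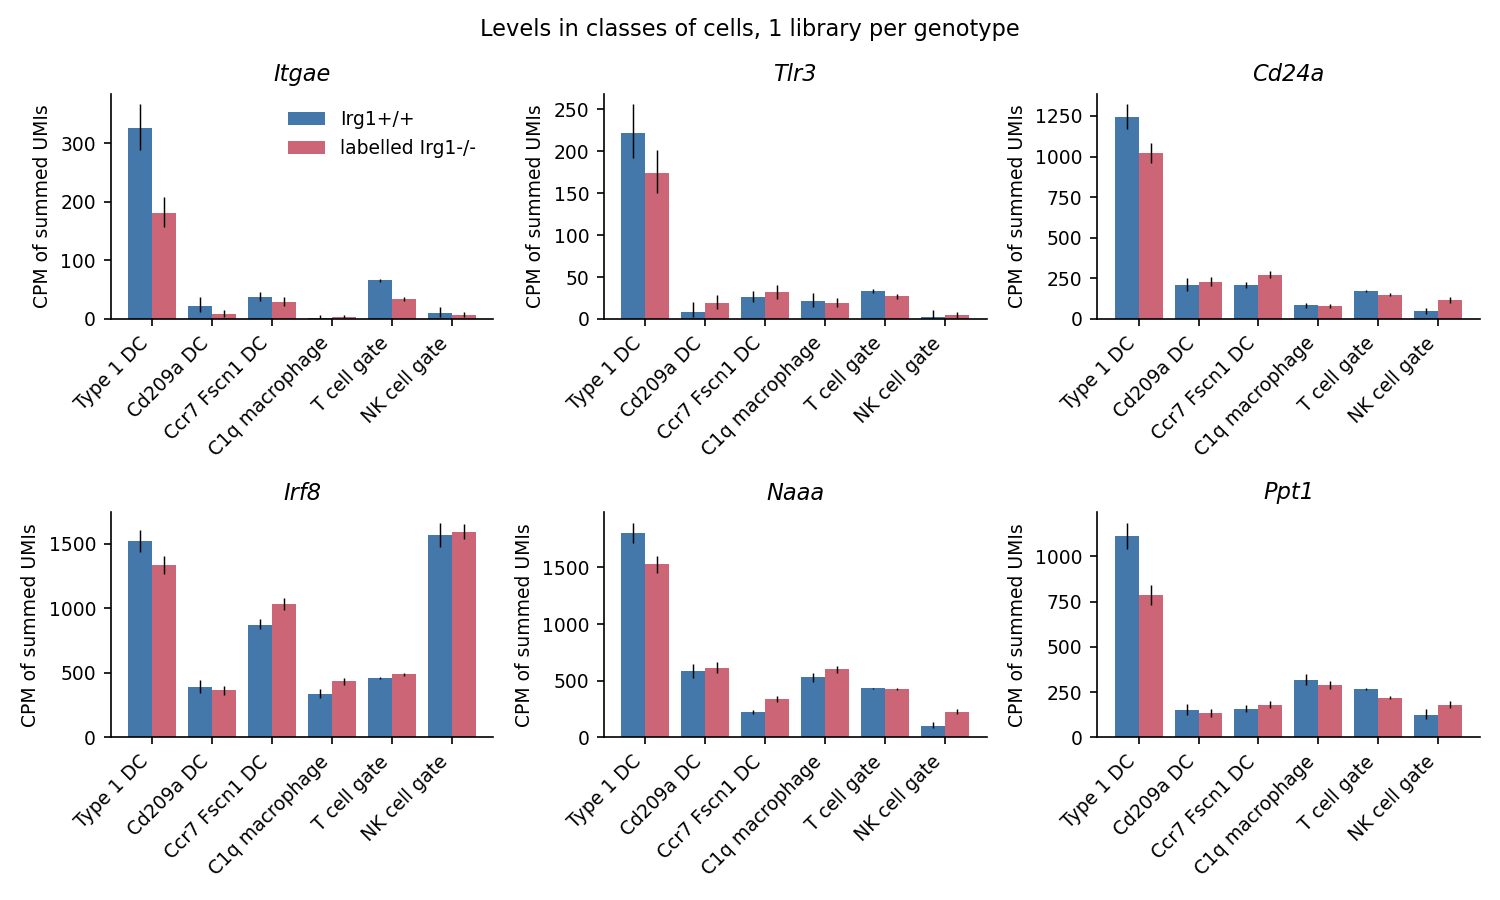
CPM of summed UMIs (vertical axes) of 6 genes in cDC1s and 5 other classes of cells, in the Irg1+/+ library (blue) and the library labelled Irg1-/- (red). Each bar is 1 library, error bars are 95% Poisson intervals. Itgae, Tlr3, Cd24a, Naaa and Ppt1 were highest in cDC1s, whereas Irf8 was as high in NK cells.

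In some members other genes went against the label cDC1, and these were set apart after their values had been seen. The members with 3 or more UMIs of Siglech, a lectin of plasmacytoid dendritic cells, numbered 17 and 13. In them Siglech had 3213 and 2791 CPM, Tcf4, the lineage factor of plasmacytoid dendritic cells, 1987 and 1756 CPM and Ly6c2 4504 and 5678 CPM, while Itgae was at 0 in both libraries and Batf3 as well. Clec9a, which had let them pass the rule, had 474 and 545 CPM there, and Xcr1 had 18.6 and 27.2 CPM. Another feature, 2 or more UMIs of Cd3d, Cd3e and Cd3g, the chains of the T cell receptor complex, was found in 34 and 21 members, 3 and 1 of which also had the Siglech UMIs, along with 315 and 244 CPM of Itgae. The members with 2 or more UMIs of Cd209a numbered 10 and 21, and those of the library labelled Irg1-/- had no UMI of Itgae or Tlr3.

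At least 1 of these features was present in 53 and 50 members. The other 80 and 88 members had 398 and 216 CPM of Itgae, 261 and 216 CPM of Tlr3, 1561 and 1250 CPM of Cd24a and 4.49 and 3.10 CPM of Siglech. They are called the remaining cDC1s here, and values in them are given beside some of those of all members. Of these cells, 23 and 34 had no UMI of Itgae or Tlr3, and 19 and 20 had none of Xcr1. Ly6c2 had 285 and 1106 CPM in them, so the remaining set is not uniform either. Doublets were neither called nor removed.

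Members at the edges of the rule differed from those next to them outside it as follows. Members with exactly 2 UMIs of Xcr1 and Clec9a (39 in each library) had 102 and 14.9 CPM of Itgae, and cells with 1 UMI that met every other limit (165 and 137) had 36.5 and 19.4 CPM. Members with 4 or 5 UMIs of the C1q genes (45 and 60 cells) had 361 and 241 CPM of Itgae, and cells with 6 or 7 had 526 and 238 CPM. At the limit on Ccr7 and Fscn1, members with 2 UMIs (24 and 27 cells) had 402 and 223 CPM, and cells with 3 (9 and 12) had 341 and 149 CPM. Itgae was thus high on both sides of the upper limits, and low next to the lower limit in the library labelled Irg1-/- on both sides.

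Between the libraries, most genes of the cDC1s were at similar levels. Of 5557 genes that reached 50 UMIs when both libraries were added up, 50 (0.900%) were at least 2-fold higher and 69 (1.24%) at least 2-fold lower in the library labelled Irg1-/-, on log2 ratios with 0.5 UMIs added. The counting interval of the ratio lay above 0 for 435 genes (7.83%) and below 0 for 485 (8.73%), and the median log2 ratio was −0.002. In the remaining cDC1s, 61 of 3824 such genes were at least 2-fold higher and 31 lower, so that higher genes outnumbered lower ones there. No count of changed genes can be drawn from these numbers, since nothing measures the spread between libraries of one genotype.

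Timd4 (chromosome 11, from 46810800 to 46844332), which encodes the phosphatidylserine receptor TIM-4 that binds dying cells, had 32.6 CPM (21.7 to 47.1) in the cDC1s of the Irg1+/+ library and 183 CPM (158 to 211) in those of the library labelled Irg1-/-, a log2 ratio of 2.47 (1.91 to 3.12). In Cd209a DCs it had 81.1 and 187 CPM, in Ccr7 Fscn1 DCs 34.4 and 129.9 CPM, and in all other kept cells 9.77 and 55.6 CPM. The direction was thus shared by the other cells of the libraries. Adgrg5, an adhesion receptor, had 37.3 and 132 CPM with a log2 ratio of 1.81 (1.26 to 2.43), and 1.73 in other kept cells. Tpm3-rs7, whose sequence is a near copy of Tpm3 so that its counts are uncertain, and Igha, the constant region of immunoglobulin A, had log2 ratios of 3.08 and 2.30 in cDC1s and 3.53 and 2.02 in other kept cells.

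For Vdr, Enc1 and Fcgr1 the ratio in cDC1s was larger than that in all other kept cells together. Vdr (chromosome 15, from 97854425 to 97910630), the vitamin D receptor, had 40.7 and 107 CPM, a log2 ratio of 1.37 (0.83 to 1.98), against 0.10 in other kept cells but 1.51 in NK cells. Enc1, an actin-binding protein, had 52.4 and 132 CPM, a ratio of 1.32 (0.84 to 1.85), against 0.05. Fcgr1, the high-affinity Fc receptor of monocytes and macrophages, had 41.9 and 108 CPM, a ratio of 1.35 (0.81 to 1.94), against 0.34. In the remaining cDC1s the ratios of these genes were 0.73, with an interval that held 0 (−0.013 to 1.55), 1.07 and 1.14, those of Enc1 and Fcgr1 were 0.69 and 0.64 in all cells chosen with limits per 10000 UMIs, and whether they differ between classes was not tested. The other genes with the highest ratios were Sirpb1c (1.51) and Tmem176b (1.51), Tppp3 (1.36), the interferon-induced Ifi44 (1.24) and Ly6i (1.19). Sirpb1c and Ly6i belong to families of close paralogs, among which reads may be split.

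Among the genes with the lowest ratios, Tbc1d4 (chromosome 14, from 101442360 to 101609191), a Rab GTPase-activating protein of glucose transport, had 255 and 96.3 CPM, a log2 ratio of −1.40 (−1.76 to −1.06), against −0.44 in other kept cells. It was −1.74 in the remaining cDC1s. Tbc1d4 and Tpm3-rs7 (from 113314608) lie on chromosome 14, as Acod1 does (from 103046977). Whether linkage to the targeted gene plays a part in their ratios was not tested. The linker histone gene H1f2 had 109 and 44.4 CPM and a ratio of −1.29 (−1.84 to −0.78), against −0.15 in other kept cells. Vegfa, the angiogenic growth factor, had 118 and 48.1 CPM and a ratio of −1.28 (−1.80 to −0.79), against −0.27. It was no longer 2-fold apart with at least 3 UMIs of Xcr1 and Clec9a (−0.67), without members with UMIs of other cell types (−0.56) or with limits per 10000 UMIs (−0.30). Mmp12 (−1.59) and Gpnmb (−1.49), both known from macrophages and the latter also from melanoma cells, had ratios of −1.46 and −1.35 in other kept cells.

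Of the 24 named genes, Timd4, Tpm3-rs7, Igha, Tppp3, Tbc1d4 and Icos were at least 2-fold apart in all 15 alternative settings. The rest of the lowest ratios were mostly of genes of other cell types. Gzmc (−2.38), Gzmb (−1.28), Icos (−1.35) and Trbc1 (−1.26) belong to cytotoxic and T cells, and 1 member of the Irg1+/+ library carried 73.4% of the Gzmb and 52.4% of the Gzmc UMIs there. In the remaining cDC1s the ratio of Gzmb was 0.22, whereas Gzmc (−1.22), Icos (−1.58) and Trbc1 (−1.11) were still at least 2-fold lower, with intervals below 0. Klk1 (−1.36) had 239 and 92.5 CPM in all members but 11.2 and 1.55 CPM in the remaining cDC1s. Rabgap1l (−1.21) and Slpi (−1.20) had ratios of −0.61 and 0.16 there.

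**Figure D3:**
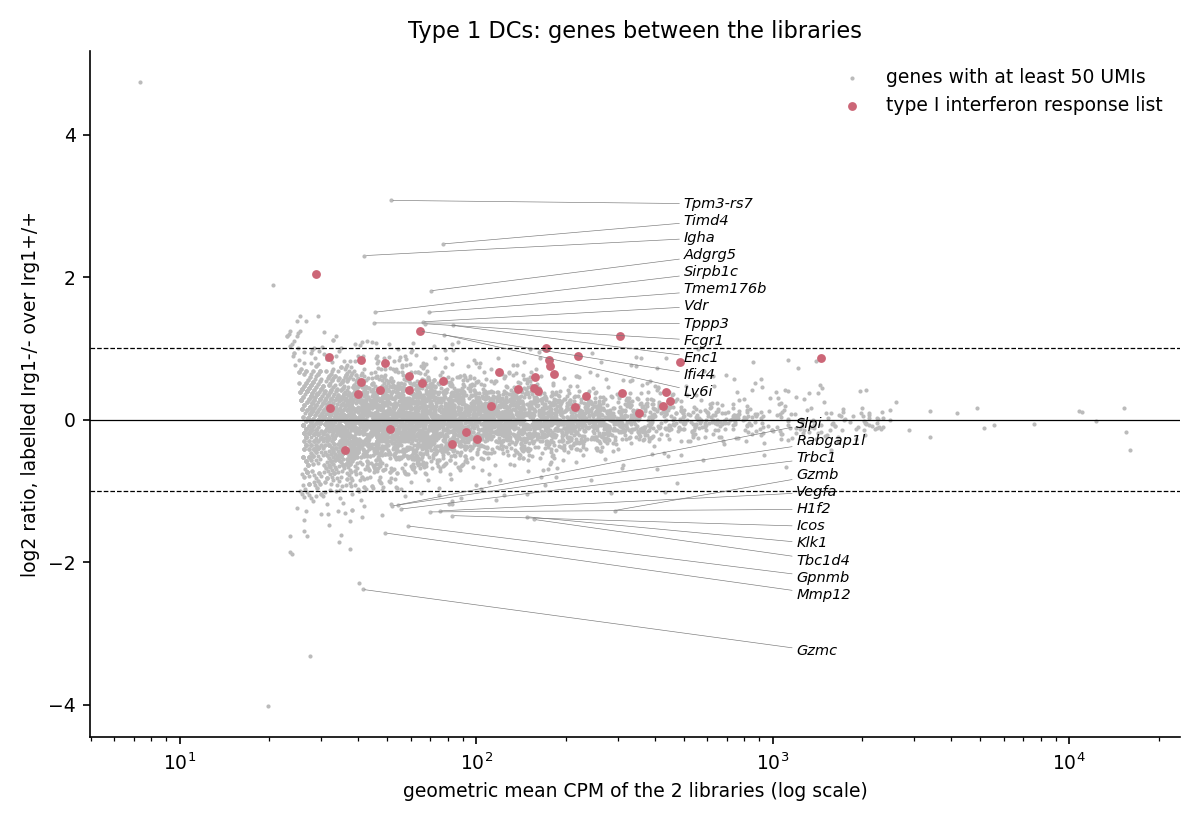
Log2 ratio of the library labelled Irg1-/- over the Irg1+/+ library in cDC1s (vertical axis) against the geometric mean CPM (log scale; a level of 0 is drawn at 0.5) of 5557 genes. Names mark the 12 highest and 12 lowest genes with at least 100 UMIs, dashed lines a 2-fold difference, and red points the type I interferon response list, of which most lie above 0 (24 of 39 with an interval above 0).

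Most genes induced by type I interferon were higher in the library labelled Irg1-/-. Of 39 genes of this list with at least 50 UMIs, 4 were at least 2-fold higher and none lower (0.900% and 1.24% of all genes), 24 had an interval above 0 and none below 0 (7.83% and 8.73% of all genes), and the median log2 ratio was 0.44 (−0.002 over all genes). The 4 were Oas3, Ifi44, Ifi27l2a and Ifi204, of which Oas3, the smallest by UMIs, was named after its value had been seen (13.97 and 59.5 CPM). Summed over all 45 genes of the list in the files, the level was 6259 and 9193 CPM. Ifitm3, which restricts the entry of viruses, had 1072 CPM (1004 to 1144) and 1964 CPM (1880 to 2050). Ifi27l2a had 203 and 459.8 CPM, a log2 ratio of 1.18 (0.93 to 1.44), Slfn5 had 367 and 647 CPM (0.82), and Ifi204, a cytosolic DNA sensor, 121 and 245 CPM (1.01). Phf11b, also among the most abundant, had a ratio of 0.39. Of the 39 genes, the 5 with ratios below 0, named after their values had been seen, were Ifit1 (−0.43), Rsad2 (−0.34), Ifit2 (−0.27), Ifi35 (−0.17) and Oasl1 (−0.13), all with intervals that held 0. In the remaining cDC1s Ifit1, Ifit2 and Rsad2 had −0.96, −0.94 and −0.80, with intervals below 0.

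The median of the list was above 0 in the other classes too, and whether classes differ was not tested. The median ratio of the list was 0.46 in Cd209a DCs, 0.41 in Ccr7 Fscn1 DCs, 0.42 in the T cell gate, 0.41 in NK cells and 0.49 in all other kept cells, and it was 0.38 in the remaining cDC1s. Per cell, the list took a median of 0.473% of the UMIs with Irg1+/+ (cells from 0.133 to 4.21) and 0.732% with the label Irg1-/- (cells from 0.173 to 4.38), so that the ranges of the cells overlapped widely. Ifnb1 had no UMI in the cDC1s of either library. For the type II interferon list, 2 of 29 genes (Fcgr1 and Tgtp1) were at least 2-fold higher and none lower (0.900% and 1.24% of all genes), 16 had an interval above 0 and 2 below 0 (7.83% and 8.73%), with a median of 0.29 and of 0.15 in the remaining cDC1s. Iigp1, an immunity-related GTPase, had 198 and 348 CPM (0.81, and 0.32 in the remaining cDC1s), and Gbp5, a guanylate-binding protein, 55.9 and 110.5 CPM (0.97 and 0.33).

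Promoters of 3 named interferon genes are shown because the list was higher in every class given above, although Ifi44 itself had a ratio of −0.02 in NK cells. The letters GAAA, followed by any 2 bases and GAAA again, are a strict form of the core of interferon-stimulated response elements. They were searched on both strands in the 250 bases before the start of each gene (RefSeq, GRCm38.p6). They were present in 15 of 35 type I interferon genes with a promoter sequence (42.9%), in 11 of 21 type II interferon genes (52.4%), in 5 of 33 genes of the cDC1 core list (15.2%) and in 3.46% of all 27025 genes. Of 5 named type I genes with a sequence, 2 held the letters, Slfn5 at chr11:82951852-82952101 on the plus strand and Phf11b at chr14:59341331-59341580 on the minus strand. Ifi44, with the highest ratio of the genes of the list with at least 100 UMIs, did not hold them at chr3:151749911-151750160 on the minus strand. Capitals mark the letters found, and a match is a description of the sequence only. Elements that differ from these letters were not searched, so a promoter without a match can still hold one.
Slfn5: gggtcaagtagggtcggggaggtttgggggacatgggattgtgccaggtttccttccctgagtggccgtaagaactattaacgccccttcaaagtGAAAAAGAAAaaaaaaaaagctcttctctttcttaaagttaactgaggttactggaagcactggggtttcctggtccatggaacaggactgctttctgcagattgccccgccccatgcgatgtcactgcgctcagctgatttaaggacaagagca
Phf11b: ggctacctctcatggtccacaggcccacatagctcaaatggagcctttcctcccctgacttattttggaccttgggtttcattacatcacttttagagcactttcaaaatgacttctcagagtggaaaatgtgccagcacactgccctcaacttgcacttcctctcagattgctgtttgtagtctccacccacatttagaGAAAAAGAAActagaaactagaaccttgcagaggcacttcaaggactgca
Ifi44: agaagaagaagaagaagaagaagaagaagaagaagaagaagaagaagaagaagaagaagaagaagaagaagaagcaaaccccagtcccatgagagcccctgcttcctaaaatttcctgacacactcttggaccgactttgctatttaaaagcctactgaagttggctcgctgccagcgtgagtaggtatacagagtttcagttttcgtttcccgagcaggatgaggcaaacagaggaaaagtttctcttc

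The core genes of cDC1s were mostly lower in the library labelled Irg1-/-. Of the 27 genes of this list that the rule had not used, none was at least 2-fold higher or lower (0.900% and 1.24% of all genes). Among them 2 had an interval above 0 and 15 below 0 (7.83% and 8.73% of all genes). Their median log2 ratio was −0.29, or −0.05 in the remaining cDC1s. With at most 1 C1q UMI per member, however, the log2 ratio of the whole list's summed level was 0.040, against −0.35 in all members. Cst3, which encodes cystatin C, had 18558 and 13879 CPM (−0.42), Itgae had a ratio of −0.85 (−1.12 to −0.58) and Cd36, a scavenger receptor, had 246 and 141 CPM (−0.80). Itgae was also lower in all other kept cells, with 54.6 and 21.5 CPM. Cd8a had a ratio of −0.68 in all members and 0.29 in the remaining cDC1s. Batf3, in contrast, had a ratio of 0.60 (0.08 to 1.14).

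The lists of MHC genes had median log2 ratios close to the −0.002 over all genes. The 10 genes of the MHC class II list had a median ratio of −0.03 and the 23 of the MHC class I list one of 0.05. None was at least 2-fold higher or lower, against 0.900% and 1.24% of all genes. Intervals lay above 0 for 3 class II and 4 class I genes (7.83% of all genes) and below 0 for 2 and 3 (8.73%). With at most 1 C1q UMI per member the log2 ratio of the summed class II level was 0.29, against 0.057 in all members. H2-Aa had 10310 and 11201 CPM, H2-Ab1 12364 and 12221 CPM, and Cd74, the invariant chain, 10634 and 11504 CPM. Ctss, the protease that cleaves the invariant chain, had 1703 and 2257 CPM (0.41), and Psmb10, an immunoproteasome subunit, 176 and 268 CPM (0.61). Of 25 genes for uptake and cross-presentation that the rule had not used, Timd4 was the one at least 2-fold higher and none was lower (0.900% and 1.24% of all genes), with a median of −0.06. For 22 transcription factors of dendritic cells other than Zbtb46 the median was 0.16, and 0.04 in the remaining cDC1s.

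Chemokine genes went in both directions. Cxcl9, the ligand of Cxcr3, had 941 and 1157 CPM (0.30, and 0.06 in the remaining cDC1s), Ccl4 had 899 and 1176 CPM (0.39), and the receptor gene Ccr2 had 397 and 788 CPM (0.99). Cxcl2, which attracts neutrophils, had 615 and 304 CPM, a ratio of −1.02 (−1.22 to −0.81), and Ccl2 and Ccl7, which attract monocytes, had ratios of −0.71 and −0.72. Of the 23 genes of the list other than Xcr1, 2 (Cxcl1 and Cxcl2) were at least 2-fold lower and none higher (1.24% and 0.900% of all genes), 10 had an interval below 0 and 6 above 0 (8.73% and 7.83%), and the median was −0.28, or −0.09 in the remaining cDC1s. The 24 genes of cytokines and their receptors other than Flt3 had a median of 0.05, with 1 (Il12b, 41.9 and 13.2 CPM, with a ratio of −0.42 in the remaining cDC1s) at least 2-fold lower, against 1.24% of all genes, Il1b at 950.1 and 1273 CPM and Il6ra at 125 and 204 CPM. For 17 genes of costimulation and checkpoints the median was 0.12, 4 with an interval above 0 and 1 below 0 (7.83% and 8.73% of all genes). Cd83 had 508 and 775 CPM and Lgals9 107 and 214 CPM, whereas Havcr2 had 239 and 161 CPM (−0.56). For 22 innate sensors the median was 0.17, 5 with an interval above 0 and 3 below 0 (7.83% and 8.73%). The interferon factor Irf7 had 136 and 229 CPM, whereas Tlr7 had 64.0 and 34.9 CPM (−0.87). The 20 genes of mature dendritic cells that the rule had not used had a median of −0.145, with Il12b again the 1 at least 2-fold lower (1.24% of all genes).

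Genes of glycolysis were lower and stress genes higher in the median. The 25 genes of glycolysis and hypoxia had a median of −0.19, 9 with an interval below 0 and 1 above 0 (8.73% and 7.83% of all genes), with Vegfa and Egln3 the 2 at least 2-fold lower (1.24%), and the 22 genes tied to itaconate and Nrf2 had one of 0.09, 6 with an interval above 0 and 2 below 0 (7.83% and 8.73%). Of this last list, G6pdx had 43.1 and 84.0 CPM (0.95), whereas Hmox1, a target of Nrf2, had 182 and 123 CPM (−0.56). The glycolysis and hypoxia median was −0.34 in all other kept cells and −0.28 in Cd209a DCs. It was −0.04 in Ccr7 Fscn1 DCs, −0.32 in the T cell gate and −0.10 in NK cells. The 30 genes known to respond to tissue dissociation had a median of 0.28, and of 0.15 in the remaining cDC1s, 16 with an interval above 0 and 5 below 0 (7.83% and 8.73%), with Fos at 947 and 1568 CPM (0.73) and the heat-shock gene Hspb1 at 88.5 and 8.50 CPM (−3.31), the 1 at least 2-fold lower (1.24%). Their summed level of 16291 and 19241 CPM was higher in the library labelled Irg1-/-, like that of the interferon genes, and its part in those differences was not tested.

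Genes of other cell types also differed between the libraries. Medians are over the genes with at least 50 UMIs, whose number is given, and summed levels, except for macrophages, over all genes of a list in the files. The monocyte list (11 genes) had a median ratio of 0.80 and summed levels of 3639 and 5848 CPM, led by Plac8, with Ly6c2 at 839.5 and 1506 CPM, and its median was 1.05 in the remaining cDC1s. With at most 1 C1q UMI per member, however, the log2 ratio of its summed level was −0.030, against 0.68 in all members. The type 2 dendritic cell list (16 genes) had 0.51 (0.26 in the remaining cDC1s) and 2213 and 3172 CPM, with Esam at 0. The log2 ratio of its summed level was 0.032 with at most 1 C1q UMI per member, against 0.52 in all members. The macrophage list had 0.17 and 3900 and 4304 CPM, led by Lyz2, over the 12 genes left without the C1q genes that the rule had limited. The T cell list (11 genes) had −1.05 and 1240 and 736 CPM, and −0.29 in the remaining cDC1s. Cells of the T cell gate made up 37.9% and 23.9% of the kept cells. The plasmacytoid dendritic cell list (12 genes) had −0.51, led by Pld4, and the NK cell list (5 genes) −0.46, led by Ccl5, but 0.36 in the remaining cDC1s.

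In the melanoma list 2 genes could be counted, Gpnmb and Dct, with a median of −1.60, and the summed level of all 10 genes was 289.9 and 109.5 CPM. The B cell list (2 genes, median 0.04) had Cd79a and Pax5 at 0, and the neutrophil and eosinophil list (2 genes, median −0.31) had Ly6g and Siglecf at 0. The Y-linked genes Ddx3y, Eif2s3y, Kdm5d and Uty were at 0 in both libraries, and Xist had 349 and 320.0 CPM. The part of these transcripts in the differences of other genes was not tested.

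**Figure D4:**
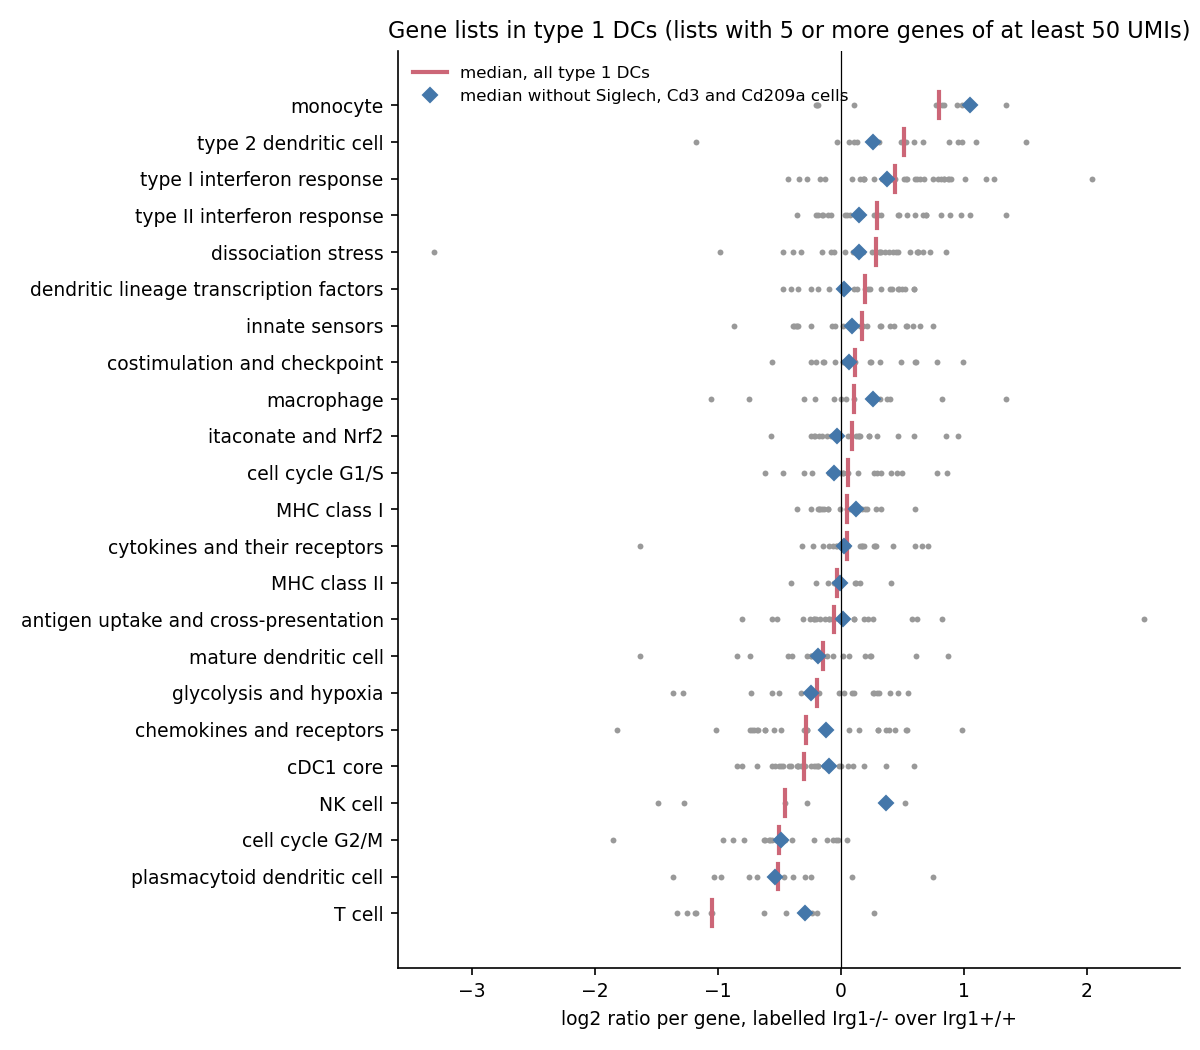
Log2 ratios of the library labelled Irg1-/- over the Irg1+/+ library in cDC1s (horizontal axis) for the genes of each list with at least 50 UMIs (grey points), for lists with 5 or more such genes, genes used by the rule included. Red bars are medians over all members, and blue diamonds medians of the same genes in the 80 and 88 remaining cDC1s. The type I interferon median was 0.44 and 0.38, and the T cell median −1.05 and −0.29.

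Transcripts of dividing cells were found in a share of the cDC1s. At least 2 UMIs of 7 genes of mitosis (Mki67, Top2a, Cdk1, Birc5, Ube2c, Ccnb2 and Tpx2) were present in 45 of 133 members (33.8%, 25.9 to 42.5) and 50 of 138 (36.2%, 28.2 to 44.8). After each cell had been thinned to 2000 UMIs, with 21 and 7 shallower members left out, the shares were 19.6% (12.7 to 28.2) and 15.3% (9.58 to 22.6). In Cd209a DCs the shares were 22.4% and 25.3% before thinning and 6.12% (2.28 to 12.9) and 6.47% (3.27 to 11.3) after it, with 0 and 4 cells left out. In Ccr7 Fscn1 DCs they were 27.3% and 23% before and 8.98% (6.10 to 12.6) and 5.63% (3.25 to 8.99) after it, with 25 and 16 cells left out. With at least 2 UMIs after thinning, the intervals of cDC1s and Cd209a DCs overlapped in both libraries and those of cDC1s and Ccr7 Fscn1 DCs in neither. Both results depended on the number of UMIs asked for. With at least 1 UMI after thinning, the intervals of cDC1s and Ccr7 Fscn1 DCs overlapped in both libraries. Those of cDC1s began at 24.44 and 24.18, and those of Ccr7 Fscn1 DCs ended at 34.06 and 28.97. With at least 4 UMIs after thinning, these classes overlapped in the library labelled Irg1-/- (2.67 to 11.7 against 0.779 to 4.54). At that limit the cDC1 interval of the Irg1+/+ library began at 6.327, above the 5.554 where that of Cd209a DCs ended. Whether free RNA of dividing cells adds to these shares was not tested. Of 21 genes of the G2/M list, 1 (Nusap1) was at least 2-fold lower and none higher (1.24% and 0.900% of all genes), 8 had an interval below 0 and none above 0 (8.73% and 7.83%), at a median of −0.50, and Top2a had 217 and 153 CPM. The G2/M median was −0.42 in all other kept cells, −0.10 in Cd209a DCs and −0.17 in Ccr7 Fscn1 DCs. It was −0.03 in the T cell gate and 0.21 in NK cells. The 19 genes of the G1/S list had a median of 0.06.

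Against the Cd209a DCs, 18 of 2825 genes (0.637%) were at least 4-fold higher in cDC1s in both libraries and 3 (0.106%) at least 4-fold lower, with the genes of either rule left out. Since both classes were chosen by UMIs of the same cells, these values are a description. Gcsam had 172 and 119 CPM in cDC1s from 148 and 126 UMIs, against 1 UMI in the Cd209a DCs of each library, with log2 intervals of 4.14 to 11.96 and 4.56 to 12.38. Gpr141b, an orphan receptor, had 209.6 and 195 CPM against 3.45 and 3.55 CPM, and Cadm1, an adhesion molecule known from cDC1s, 164 and 124 CPM against 10.3 and 4.43 CPM. Dnase1l3, a secreted nuclease, had 236 and 182 CPM against 13.8 and 22.2 CPM. Itgae, Tlr3 and Ppt1, given above, were also among the 12 highest, as were Tbc1d8, Rab7b, Zc3h12c and Klk1, whose log2 ratios in the library where each was smaller were 2.34, 2.26, 2.15 and 4.54.

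Klk1 had 1848 and 1321 CPM in the members with Siglech and 11.2 and 1.55 CPM in the remaining cDC1s. Lower in cDC1s were Clec10a, a lectin of type 2 dendritic cells, with 74.5 and 80.3 CPM against 562 and 524 CPM, Cxcl10 with 93.1 and 136 CPM against 460.4 and 926 CPM, and Mcemp1 with log2 ratios of −2.17 in both. Tnip3, Ank, Tmem176a, Itgam, Mrc1, Tmem176b, Ifit1, Cdh1 and S100a4 followed with ratios between −2.63 and −1.54.

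Against the Ccr7 Fscn1 DCs, 20 of 4613 genes (0.434%) were at least 4-fold higher in cDC1s in both libraries and 131 (2.84%) at least 4-fold lower. The highest, Siglech, Klk1 and Ccr9, are genes of plasmacytoid dendritic cells, and in the remaining cDC1s their log2 ratios were 0.11, 1.68 and 2.31 in the Irg1+/+ library and −1.76, −2.25 and −1.01 in the other. Egr3, a transcription factor, had 516 and 319 CPM against 61.5 and 51.9 CPM, Septin3 707 and 478 CPM against 51.6 and 87.8 CPM, and P2ry14, a receptor for nucleotide sugars, 157 and 169.9 CPM against 25.8 and 31.3 CPM. Plet1, Gpr141b, Sdad1 and Mctp1 completed the 12 with Itgae and Tlr3.

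The 12 genes lowest in cDC1s against Ccr7 Fscn1 DCs had few UMIs in cDC1s. Slco5a1 had no UMI in the members of either library against 77.4 and 73.9 CPM, with upper limits of the log2 intervals at −4.155 and −4.39. Scin, which severs actin, had 1 and 3 UMIs in cDC1s against 441 and 269 UMIs, with log2 intervals of −12.73 to −4.93 and −7.89 to −4.04. Tnfsf4, the ligand of OX40, had 2 UMIs in each library against 405 and 177, with intervals of −9.35 to −4.44 and −8.65 to −3.71. Socs2, an inhibitor of cytokine signaling, had 9.31 and 15.1 CPM against 446 and 440.1 CPM, and Mreg 6.99 and 11.3 CPM against 396 and 354 CPM. Clu, Apol7c, Slc27a3, Ankrd33b, Nudt17, Pdlim4 and Adcy6 had at most 4 UMIs each in the members of a library.

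**Figure D5:**
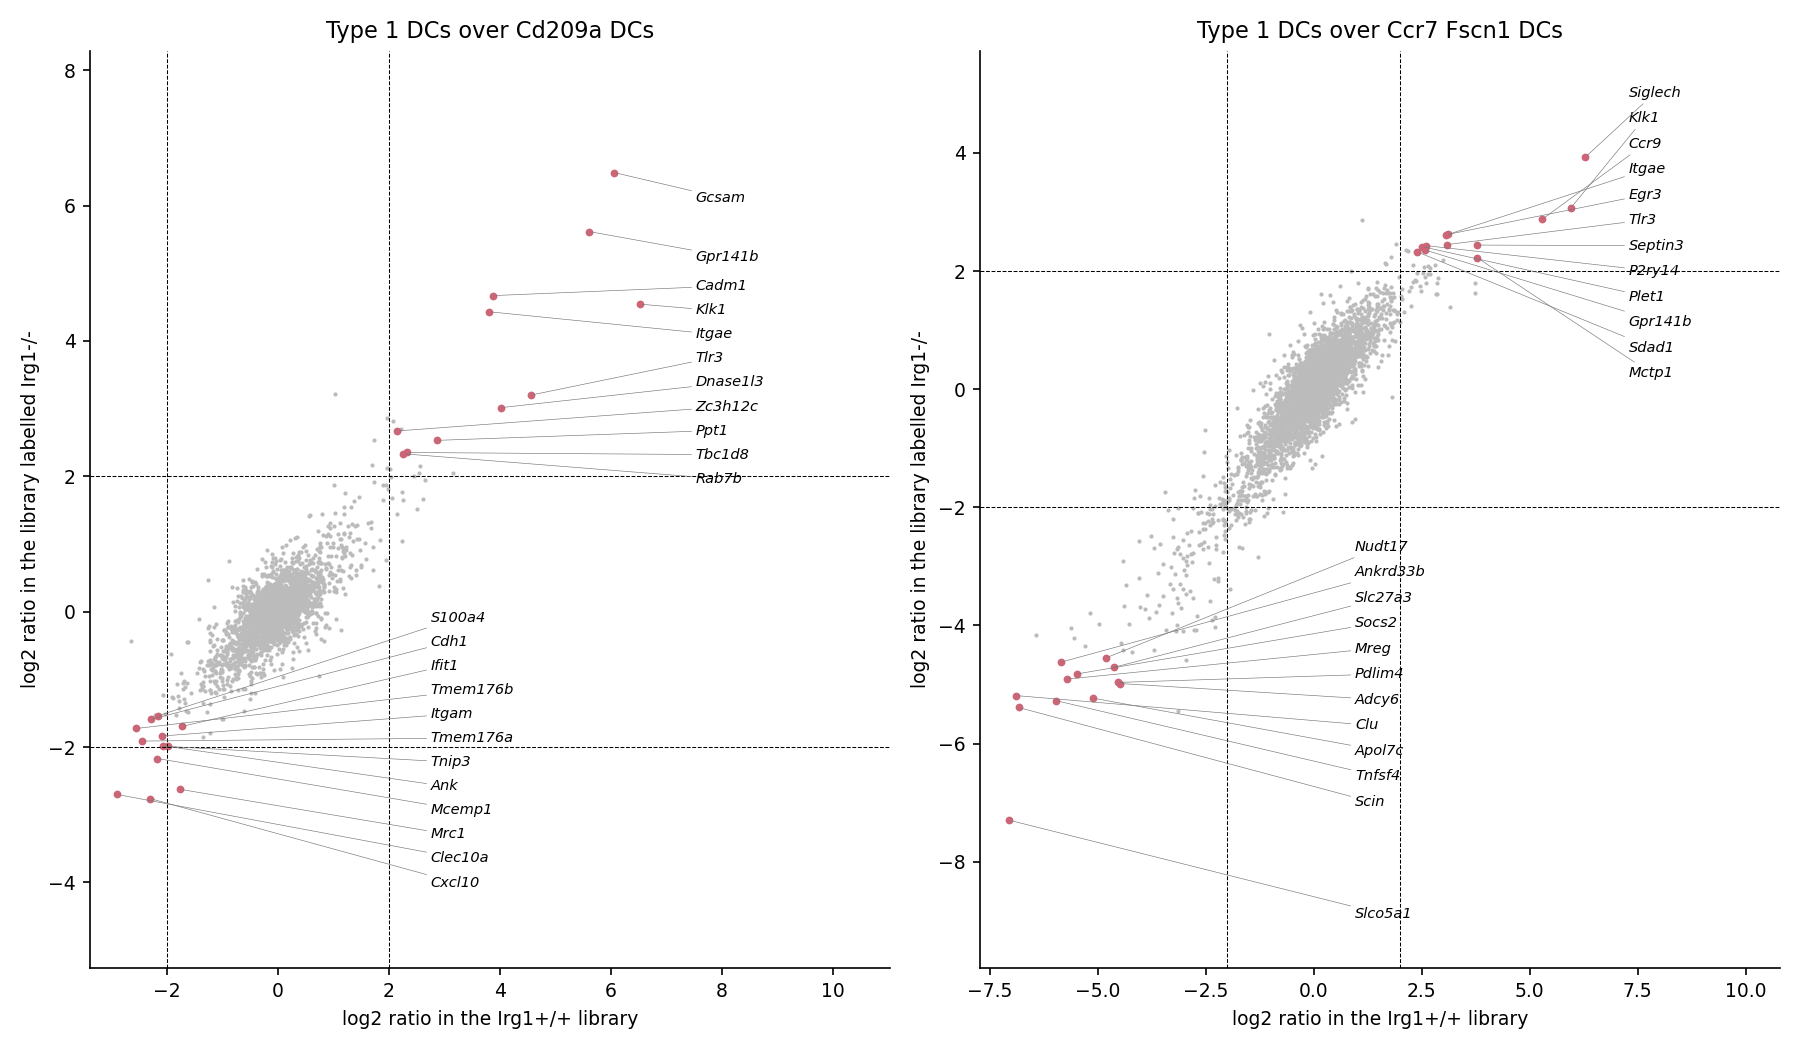
Log2 ratio of cDC1s over Cd209a DCs (left) and over Ccr7 Fscn1 DCs (right) in the Irg1+/+ library (horizontal axes) and the library labelled Irg1-/- (vertical axes), with 1 point per gene. Red points with names are genes from the 12 highest and the 12 lowest over both libraries, and dashed lines mark 4-fold. The places of Slco5a1 and Clu depend on the 0.5 UMIs added, since they have a library with no UMI in cDC1s.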

How the data were processed

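The authors deposited raw UMI counts per gene and cell for both libraries, after base calling with CASAVA 1.8, listing of barcodes with UMI-tools and alignment to GRCm38 (Ensembl release 100), per the submitters' notes and the study's methods. The files hold 31253 genes in both libraries. Cells at or above 10% mitochondrial UMIs were dropped, as were the mitochondrial genes. Doublets were not called. UMIs were summed per class, with Poisson intervals for CPM, conditional binomial intervals for log2 ratios (0.5 UMIs added) and Clopper-Pearson intervals for shares, and there was no test, since the study's test over cells has no replicate. The 2-fold comparison used genes with at least 50 UMIs.

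The cells, the 27 gene lists and the alternatives were chosen with earlier results of these data known. Named were the markers and genes of the rule, Acod1, the 12 highest and 12 lowest genes of each comparison among those with at least 100 UMIs (between the libraries also with a UMI in 10% of the cells of either), up to 4 most abundant and 4 most different genes per list, and defining genes at 0. A few genes that this rule names are not reported here. The ratios and intervals were checked on simulated counts. Python 3.11.15, numpy 2.4.6, scipy 1.17.1 and edgeR 4.0.16 (TMM factors) were used. Positions come from GENCODE mouse release M21, in which 31107 identifiers were found.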

Additional observations from a re-analysis of the deposited data

Results flagged for a closer look

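Among the 24 genes with the highest and lowest ratios between the libraries in cDC1s, 4 had a counting interval on the other side of 0 in another dendritic class. These differences between classes were not tested, and each class has 1 library per genotype. Vdr had a log2 ratio of 1.37 in cDC1s and −0.83 (−1.16 to −0.50) in Cd209a DCs, where it had 257 and 145 CPM. Ly6i had 1.19 in cDC1s and −0.53 (−0.98 to −0.06) in Cd209a DCs. Slpi, a protease inhibitor, had −1.20 in cDC1s, 1.16 (0.03 to 2.66) in Cd209a DCs from 7 and 32 UMIs and 0.74 (0.22 to 1.29) in Ccr7 Fscn1 DCs. Klk1 had −1.36 in cDC1s and 1.52 (0.34 to 2.96) in Ccr7 Fscn1 DCs, from 8 and 21 UMIs there. In the remaining cDC1s, that is, without the members with Siglech, Cd3 or Cd209a UMIs, the interval held 0 for all 4 genes, with ratios of 0.73 (−0.013 to 1.55) for Vdr, 0.66 (−0.014 to 1.40) for Ly6i and 0.16 (−0.84 to 1.25) for Slpi, whose direction turned. Klk1 had 5 and 1 UMIs there (−8.42 to 0.30), against 1848 and 1321 CPM in the members with Siglech.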

How the results depend on the processing

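Each genotype has 1 library, so the limit of every comparison is the absent spread between libraries, and the alternatives below show only how the values move with the processing. No paired analysis was possible because each genotype has 1 library. The removals of cells with Siglech, Cd3 or Cd209a UMIs and the limits per 10000 UMIs were chosen after seeing the data. Where a value moved, the cause was not tested, except that settings which keep fewer cells or change the lowest count also change the number of genes compared.

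The difference in the share of cDC1s was below 0 at −0.70 points with limits per 10000 UMIs and −0.13 points (35 and 25 cells) with at most 1 C1q UMI. Genes at least 2-fold apart numbered 119 of 5557 (50 higher, 69 lower). They numbered 50 of 742 (28 and 22) with at most 1 C1q UMI, a larger share of the genes compared. They numbered 205 of 5557 (99 and 106) with means of single cells' CPM and 42 of 1998 (23 and 19) in thinned cells. With at least 20, 1 and 100 UMIs they were 389 of 7929 (156 and 233), 3460 of 13297 (1550 and 1910) and 44 of 3578 (19 and 25). Without Siglech, Cd3 and Cd209a cells 31 of 3824 were lower and without cycling cells 36 of 3832. With limits per 10000 UMIs 85 of 7927 were higher. Of these calls 42.0% were higher, against 66.3%, 67.3% and 56.7% under those 3 settings, 56.0% with at most 1 C1q UMI and 54.8% in thinned cells. Of 422 distinct list genes 29 were 2-fold apart. The counts were 19 with at most 1 C1q UMI and 14 in thinned cells, settings that compared fewer genes. Against Cd209a DCs, 5 genes were 4-fold lower with TMM scaling and 8 without the 3 kinds of cells, 3 were higher in thinned cells, and 9 were higher and 1 lower without cycling cells. Against Ccr7 Fscn1 DCs, 10 were higher and 69 lower in thinned cells. The cycling shares were 19.6% and 15.3% in thinned cells, 56.4% and 64.5% with at least 1 UMI and 18.8% and 21.01% with at least 4.

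Of the lists whose summed interval lay off 0, 7 changed sign in a setting, as did 3 genes. A further 8 lists, whose interval held 0 at the start, took the other sign in at least 1 setting, between −0.71 and 0.19. With at most 1 C1q UMI the log2 ratio was 0.040 for the cDC1 core, −0.030 for monocyte, 0.35 for NK cell genes and 0.46 for Rabgap1l. The macrophage list had −0.042 with at least 3 UMIs of Xcr1 and Clec9a and −0.018 with limits per 10000 UMIs. The G1/S list had −0.15 without cells with UMIs of other types, −0.072 without Cd3 cells, −0.016 without the 3 kinds, −0.24 with limits per 10000 UMIs, −0.16 both without cycling cells and with means of single cells, and −0.22 in thinned cells. The NK list had 0.093 and Gzmb 0.57 without the 5% deepest members, and the NK list 0.44 without Cd3 cells, 0.54 without the 3 kinds and 0.11 with limits per 10000 UMIs. Without Siglech cells the ratio was −0.0094 for MHC class II, 0.40 for plasmacytoid genes and 0.13 for Slpi. Without the 3 kinds it was 0.11 for plasmacytoid genes, 0.22 for Gzmb and 0.16 for Slpi, and with limits per 10000 UMIs 0.25 for plasmacytoid genes. The type I interferon list kept its direction in all 15 settings.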
